A study of Mus musculus with 8 samples.

Results

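RNA from 4 libraries of proliferating C2C12 cells was compared directly: 2 libraries in which Baf250A was knocked down against 2 in which Baf180 was knocked down. They are 4 of the 8 libraries of the series, chosen by their labels. The scrambled-shRNA and Brd9 knockdown libraries entered no value in the main comparison. C2C12 is a mouse myoblast line, and all 4 cultures were kept in growth medium with calf serum, transduced with a lentivirus carrying an shRNA in polybrene, and selected and then maintained in puromycin. Each target had a single shRNA as far as the sample titles show, code s06 for Baf250A and s81 for Baf180, so gene and hairpin cannot be told apart. Replicates are numbered 1 and 2, and nothing states that they came from separate cultures, so the p-values can only reflect how far these libraries vary, and that variation may be technical. Without a reference group in the comparison, a gene that is higher in the Baf250A knockdown may have risen there or fallen in the Baf180 knockdown.

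SWI/SNF (BAF) complexes are chromatin remodellers that use ATP to move or evict nucleosomes, mostly at enhancers and promoters. Baf250A, encoded by Arid1a, is a DNA-binding subunit found only in the canonical form, cBAF. Baf180, encoded by Pbrm1, carries a row of bromodomains and is found only in the PBAF form, which also holds Arid2, Brd7 and Phf10. In muscle precursors the complexes are recruited to muscle genes by the bHLH factor MyoD, which pairs with E proteins on E-box sites. A direct comparison asks which genes separate knockdown of this cBAF subunit from knockdown of this PBAF subunit. The amount of either complex was not measured.

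Library totals ran from 18249484 to 20400855 estimated counts, and 14195 to 14594 genes had a count. Levels are given in CPM, the count scaled to library size, with the 2 Baf250A replicates before the 2 Baf180 replicates, and CPM are not corrected for gene length. Log2 fold changes are Baf250A over Baf180, followed by a standard error derived from the edgeR test statistic, with n = 2 libraries in each group. Each one is also given with offsets, meaning after removal of the trend with transcript GC content and gene length described next; where 2 values are joined by "then", the first is the log2 fold change without offsets and the second with them. With no reference group, higher and lower always mean the Baf250A knockdown relative to the Baf180 knockdown. A gene was called at an edgeR adjusted p below 0.05.

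Transcript GC content ordered the comparison. Over the 11976 tested genes with a GC value, Spearman's rho between log2 fold change and GC content was -0.719 across genes, which are not independent replicates. In the bottom GC decile (33.21 to 42.27%) the median log2 fold change was 1.77, and 1043 genes were called higher against 5 lower. In the top decile (58.44 to 72.83%) the median was -0.83, with 28 called higher and 787 lower. The trend also ran between replicates of 1 group. Replicate 2 exceeded replicate 1 by a median of 0.589 in the bottom decile for Baf250A (rho -0.757) and by 0.392 for Baf180 (rho -0.642). The 2 groups nonetheless did not meet: the nearest pair across groups, Baf250A replicate 1 and Baf180 replicate 2, still differed by 1.21 in the bottom decile (rho -0.593). With the offsets, rho was 0.00129 and these 2 deciles had medians of 0.02 and 0.08. Offsets remove any real difference that follows GC content along with any other, and the source of the trend was not tested. Being fitted to each library, the offsets also removed the trend between replicates, and the median standard error was 0.238 without and 0.131 with them. Errors and p-values with offsets leave out that variation and the error of the fitted curves.

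**Figure D1:**
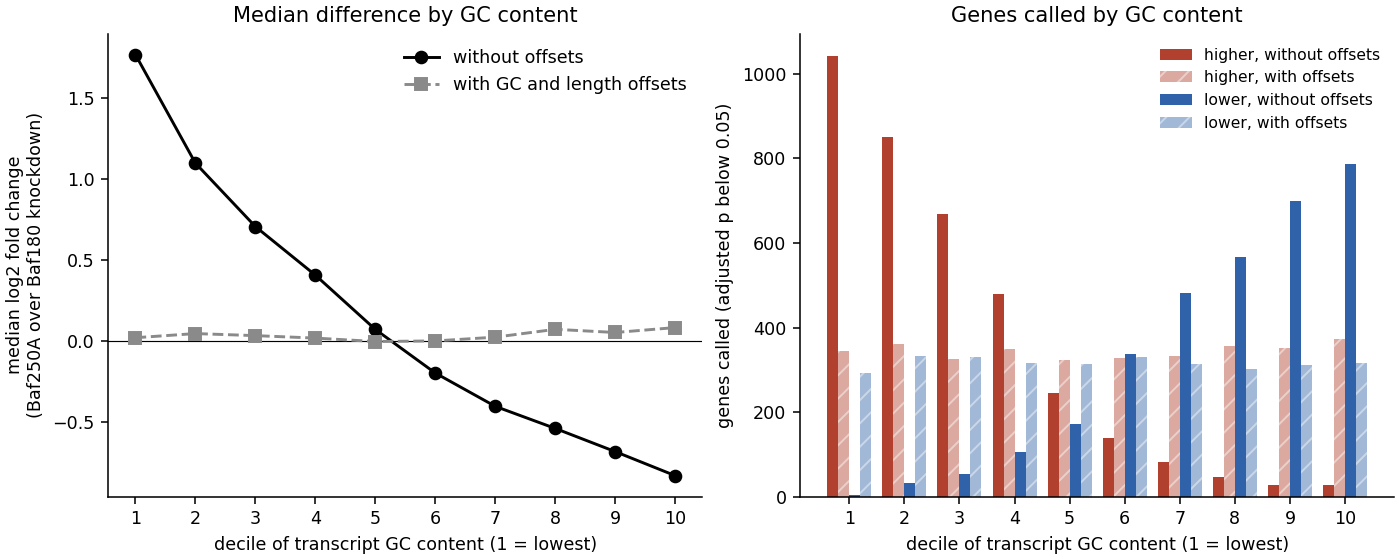
Left, median log2 fold change (Baf250A over Baf180 knockdown) of the tested genes in each decile of transcript GC content, without offsets (circles) and with GC and length offsets (squares). Right, genes called at an edgeR adjusted p below 0.05 in each decile. Without offsets the median falls from 1.77 to -0.83 and calls pass from nearly all higher to nearly all lower; with offsets 344 are higher and 293 lower in the bottom decile, and 374 and 316 in the top decile.

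Of 12098 genes tested, 6905 were called (57.1%), 3642 higher in the Baf250A knockdown (30.1%) and 3263 lower (27.0%). With the offsets 6666 were called (55.1%), 3481 higher (28.8%) and 3185 lower (26.3%). The near-equal totals hide an exchange of genes. Only 3905 genes, 56.6% of the calls made without offsets, kept their call and direction, 1972 higher (16.3% of those tested) and 1933 lower (16.0%). Another 332 genes were called in opposite directions by the 2 fits. These 3905 genes, called in the same direction in both fits, are described below, and 660 of them were at least 2-fold higher and 711 at least 2-fold lower by both estimates. At an unadjusted p below 0.05 there were 7533 genes without and 7353 with the offsets. Both libraries of 1 group lay beyond both of the other for 82.3% of all tested genes, so separation of the groups alone says little about a gene.

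**Figure D2:**
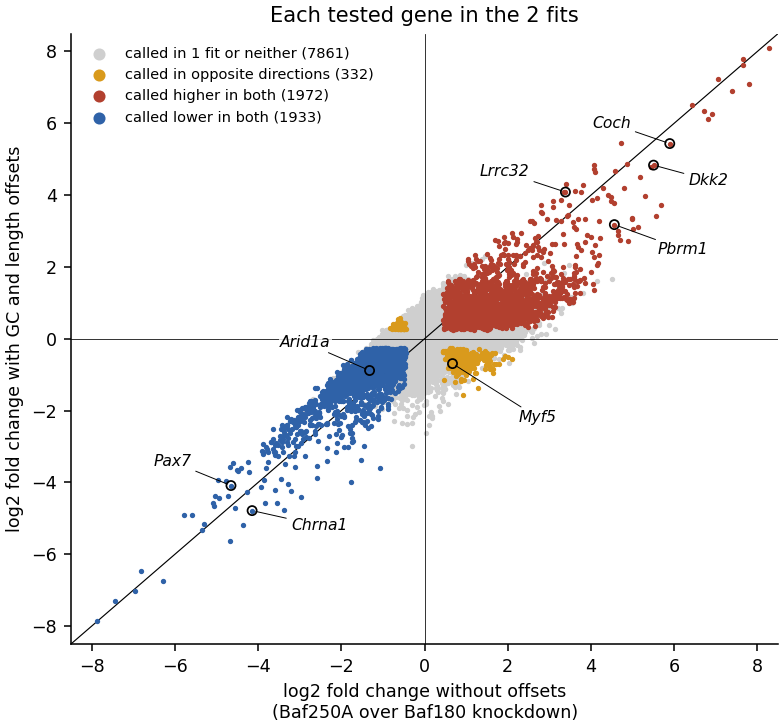
Log2 fold change (Baf250A over Baf180 knockdown) of each tested gene without offsets (horizontal) and with GC and length offsets (vertical), with the line of equal values. The 3905 genes called alike in both fits lie in the upper right and lower left, and the 332 called in opposite directions lie in the other quadrants.

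Leaving out Baf250A replicate 2, the library with the most RNA from low-GC transcripts, lowered the count called in both fits to 2466. Of the 264 genes chosen by the naming rule and called in both fits, 190 kept the call in all 8 fits that left out 1 library, and exceptions are given where such a gene is named. Counts in brackets after a count of list members are those over the 4 fits that leave out 1 library each. Each list count is to be read beside the shares of all tested genes in both fits, 16.3% higher and 16.0% lower. Those shares do not allow for GC content, and calls in both fits still follow the trend. In the bottom GC decile 344 genes were higher and 5 lower in both fits, and in the top decile 28 and 316. A GC-rich list is therefore less likely to hold higher members, and a GC-poor list lower ones. Median GC was 55.3% for the tested muscle structural genes and myoblast markers and 46.8% for mitosis genes.

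The targets came first. Arid1a (chr4:133679008-133756769) stood at 66.1 and 63.8 CPM in the Baf250A knockdown and 152 and 172 CPM in the Baf180 knockdown (log2 fold change -1.32 ± 0.18, edgeR adjusted p = 7.2e-05; with offsets -0.88 ± 0.13, adjusted p = 0.00049). Pbrm1 (chr14:31019138-31121592) stood at 73.4 and 119 CPM in the Baf250A knockdown and 3.61 and 4.53 CPM in the Baf180 knockdown (log2 fold change 4.56 ± 0.29, edgeR adjusted p = 8.5e-07; with offsets 3.18 ± 0.13, adjusted p = 6.7e-07). Each target was therefore lowest in both libraries labelled with its own knockdown, and the contrast was far larger for Pbrm1. Pbrm1 has a GC-poor transcript (43.2% GC), and its difference was smaller with the offsets.

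Other subunits separated less. Of the 3 remaining PBAF genes, Brd7 (57.2 and 60.4 against 26.9 and 36 CPM) and Phf10 (82.6 and 87 against 40 and 57 CPM) were higher in the Baf250A knockdown, by 0.90 ± 0.21 and 0.81 ± 0.21 without and 0.49 ± 0.11 and 0.64 ± 0.13 with the offsets. Without Baf180 replicate 1 and without offsets, both lost the call (edgeR adjusted p = 0.0602 for Brd7 and 0.13 for Phf10). Arid2, which ties PBAF to Brd7 and Pbrm1, was called only without offsets (1.14 ± 0.23, then 0.20 ± 0.11, edgeR adjusted p = 0.14), though with them also when Baf180 replicate 2 was left out (adjusted p = 0.0247). For the Arid1a paralogue Arid1b the values were 66.2 and 67.8 against 65.4 and 63.5 CPM (log2 fold change 0.06 ± 0.19, edgeR adjusted p = 0.81; with offsets 0.09 ± 0.10, adjusted p = 0.44), a difference smaller than its error. The cBAF plant-homeodomain subunit Dpf2 was lower (-0.73 ± 0.19, then -0.37 ± 0.10) but lost both calls without Baf250A replicate 2 (edgeR adjusted p = 0.137 and 0.167). Dpf1 was lower without offsets only (-0.69 ± 0.26, then 0.15 ± 0.17, edgeR adjusted p = 0.48), and was not called when any 1 library was left out (edgeR adjusted p of 0.0627 to 0.283).

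Among subunits shared by the forms, Smarcd3, the muscle-associated BAF60C, was lower in the Baf250A knockdown at 40.7 and 31.7 against 135 and 97.7 CPM (log2 fold change -1.68 ± 0.22, edgeR adjusted p = 4.7e-05; with offsets -0.75 ± 0.10, adjusted p = 0.00022). The scaffold subunit Smarcc2 was lower too, at 131 and 125 against 260.3 and 247 CPM (-0.99 ± 0.18, then -0.51 ± 0.09), while its paralogue Smarcc1 was higher (0.63 ± 0.18, then 0.28 ± 0.10). Smarcc1 lost 5 of its 8 calls with a library left out. Both ATPases missed the threshold in both fits, Smarca4 at 491 and 438 against 652 and 551 CPM and Smarca2 at 9.36 and 12.1 against 7.16 and 9.17 CPM. The same holds for Actl6a, Actb and, with all 4 libraries, Ss18l1. Ss18l1 was called higher in both fits without Baf250A replicate 1 (edgeR adjusted p = 0.022, then 0.0095) and without Baf180 replicate 2 (adjusted p = 0.00379, then 5e-04). Ss18 and Bcl7a were higher in both fits (0.85 ± 0.20 and 0.61 ± 0.23, then 0.48 ± 0.10 and 0.80 ± 0.14). Without offsets Ss18 lost its call when Baf250A replicate 2 was left out (edgeR adjusted p = 0.0762), and Bcl7a when Baf250A replicate 1, Baf250A replicate 2 or Baf180 replicate 1 was (adjusted p = 0.079, 0.241 and 0.312).

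For the rest, call or sign turned on the offsets. Smarcd1 (-0.07 ± 0.18, then 0.69 ± 0.10), Bcl7b (0.0 ± 0.21, then 0.76 ± 0.13), Bcl7c (-0.53 ± 0.22, then 0.63 ± 0.10) and Smarce1 (0.15 ± 0.18, then 0.44 ± 0.09) were called only with them. Smarcd2 (-0.83 ± 0.20, then -0.16 ± 0.10) and Smarcb1 (-0.67 ± 0.20, then 0.03 ± 0.10) were called only without them. In the non-canonical ncBAF form, Bicral was higher in both fits (0.99 ± 0.27, then 0.89 ± 0.16), except without Baf180 replicate 1 and offsets (edgeR adjusted p = 0.0856). Its paralogue Bicra changed sign (-0.73 ± 0.22, then 0.17 ± 0.11), and Brd9 was called only with the offsets (0.25 ± 0.20, then 0.29 ± 0.11). Left-out libraries changed several of these calls. Without Baf250A replicate 2 or Baf180 replicate 1, edgeR adjusted p was 0.0696 and 0.0569 for Smarcd2, 0.233 and 0.135 for Smarcb1, and 0.151 and 0.126 for Bicra. With the offsets Smarce1 lost the call without Baf250A replicate 2 (edgeR adjusted p = 0.0553), and Brd9 without Baf250A replicate 1, Baf250A replicate 2 or Baf180 replicate 1 (adjusted p = 0.0904, 0.35 and 0.0638). Without Baf180 replicate 2, Smarcd2 was called lower with offsets as well (-0.269, edgeR adjusted p = 0.0271) and Bcl7c lower without them (-0.756, adjusted p = 0.0148). Dpf3 (0 and 0 against 3 and 1 counts) and Actl6b (0 counts in all 4 libraries) were too low to test.

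Most genes of myoblast identity were lower in the Baf250A knockdown than in the Baf180 knockdown. Of 12 myoblast markers, 11 were tested and 8 were lower in both fits and none higher, against 16.0% lower and 16.3% higher of all genes tested. Their median log2 fold change was -1.48 (-0.91 with the offsets) beside -0.01 (0.03) over all tested genes. The count stayed at 7 or 8 when any 1 library was left out. Of the 11 markers, 3 lay above 0 without offsets and 1 with them. Without offsets these were Myf5, described below, Vcam1 (2174 and 2358 against 1872 and 2310 counts) and Sdc4 (4383 and 4007 against 3269 and 3792 counts). None of the 3 was called without offsets. The summed level of the 12 markers was 1211 and 1413 CPM in the Baf250A libraries and 2851 and 3795 CPM in the Baf180 libraries. In bulk RNA, fewer cells of a type and less RNA per cell cannot be told apart.

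Pax7 (chr4:139737059-139833530), the transcription factor of muscle stem cells, stood at 0.891 and 0.205 CPM against 14.8 and 13.4 CPM (log2 fold change -4.65 ± 0.44, edgeR adjusted p = 7.7e-06; with offsets -4.09 ± 0.33, adjusted p = 1.9e-05). Myod1, the master regulator that commits cells to the muscle lineage, was lower at 127 and 101 against 351 and 282 CPM (log2 fold change -1.48 ± 0.20, edgeR adjusted p = 5.5e-05; with offsets -0.57 ± 0.09, adjusted p = 0.00072). Myog, the bHLH factor of differentiation, was low in all 4 libraries, at 0.099 and 0.359 against 1.55 and 1.32 CPM (-2.62 ± 0.56, then -2.0 ± 0.53). The 2 groups did not overlap for any of the 3, as for 82.3% of all tested genes. With the offsets Myog lost the call without Baf250A replicate 1 (edgeR adjusted p = 0.113).

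Myf5, the other early determination factor, went against this only before the trend was removed. Its GC-poor transcript (41.6% GC) gave 11.7 and 15.8 CPM in the Baf250A knockdown and 6.83 and 10.4 CPM in the Baf180 knockdown, a log2 fold change of 0.67 ± 0.29 that was not called (edgeR adjusted p = 0.061). With the offsets it was lower, at -0.69 ± 0.15 (edgeR adjusted p = 0.0036), so its direction rests on the correction. Without offsets it was called higher when Baf250A replicate 1 or Baf180 replicate 2 was left out (edgeR adjusted p = 0.0425 and 0.0106). Mef2c, a partner of the myogenic factors, had 1 to 3 counts in each library and was not tested.

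Some further genes of muscle precursors were lower as well. Cdh15, the muscle cadherin, stood at 33.7 and 26.1 against 313 and 247 CPM (log2 fold change -3.23 ± 0.22, edgeR adjusted p = 8.5e-07; with offsets -2.30 ± 0.10, adjusted p = 7.0e-07), and Itga7, the muscle laminin receptor subunit, at 74 and 59.4 against 384 and 301 CPM (log2 fold change -2.36 ± 0.21, edgeR adjusted p = 4.7e-06; with offsets -1.67 ± 0.10, adjusted p = 5.4e-06). Hes6, a Hes-family bHLH protein expressed in myoblasts, stood at 12.2 and 11.5 against 99.3 and 76.6 CPM (-2.89 ± 0.22, then -1.94 ± 0.12). Of the 31 tested myogenic regulators, 9 were lower and 4 higher in both fits (8 or 9 and 4 with a library left out). The 4 higher were the hepatocyte growth factor receptor Met (1.46 ± 0.22, then 0.56 ± 0.10), Mef2a (1.61 ± 0.25, then 0.53 ± 0.11), the E protein Tcf12 (1.33 ± 0.21, then 0.52 ± 0.10) and the transcriptional cofactor Eya1 (1.26 ± 0.24, then 0.70 ± 0.12). All 4 have transcripts below the median GC content of tested genes, 50.5%. With the offsets alone 15 of the 31 regulators were lower and 11 higher, and 3 were called in opposite directions by the 2 fits.

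Contractile and junctional genes followed the same direction. Of 62 muscle structural genes 22 were tested, and 11 were lower in both fits and none higher (8 or 9 lower with a library left out; median -1.12, then -0.67). With the offsets alone 12 were lower and 3 higher. Cacng1, a subunit of the muscle calcium channel, stood at 7.92 and 5.65 against 107 and 79.6 CPM (log2 fold change -3.78 ± 0.26, edgeR adjusted p = 8.5e-07; with offsets -3.08 ± 0.13, adjusted p = 6.7e-07). Jph2, which holds the plasma membrane to the sarcoplasmic reticulum, stood at 99.3 and 76.6 against 575 and 434 CPM (-2.52 ± 0.21, then -1.58 ± 0.10). Actn3, the Z-disc actinin of fast fibres, stood at 5.54 and 4.31 against 44 and 32.4 CPM (-2.95 ± 0.27, then -2.19 ± 0.14). Slow troponin T, Tnnt1, had 2 counts in the Baf250A knockdown and 71 in the Baf180 knockdown, a ratio of 38.1 (exact 95% interval of counting error, 10.2 to 321).

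Genes of the neuromuscular synapse were lower as well. Of 20 genes 16 were tested, and 8 were lower and none higher in both fits (7 or 8 lower with a library left out). The median of the 16 was -0.99, then -0.59. Without offsets 8 were lower and 1 higher, and with the offsets alone 10 were lower and 1 higher. The lists share members, so their counts are not separate results. Chrna1 is also a myoblast marker. Pax7, Cdh15 and Itga7 are both myoblast markers and myogenic regulators, and Cdh15 and Itga7 are also in the list of integrins, cadherins and catenins. Chrna1 (chr2:73563281-73580338), the ligand-binding subunit of the muscle acetylcholine receptor, stood at 15.8 and 15.7 against 299.5 and 259.5 CPM (log2 fold change -4.15 ± 0.21, edgeR adjusted p = 2.0e-07; with offsets -4.79 ± 0.19, adjusted p = 6.7e-07). Its transcript lies below the median GC content (46.3%), and its difference was wider with the offsets. The receptor-clustering protein Rapsn stood at 38.3 and 31.5 against 174 and 128 CPM (-2.11 ± 0.22, then -1.22 ± 0.10), and the organiser agrin, Agrn, at 27.9 and 24.1 against 82.3 and 78.1 CPM (-1.62 ± 0.20, then -1.02 ± 0.11). Chrng, the fetal receptor subunit, had 2 counts against 70, a ratio of 37.6 (exact 95% interval of counting error, 10 to 316).

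The promoters of 4 of these muscle genes are shown because they hold CAGCTG, an E-box of the kind that MyoD dimers bind. Letters are the 250 bases before the RefSeq start on GRCm38.p6, written 5′ to 3′ on the gene's strand, with each CAGCTG in capitals. CAGCTG is its own reverse complement, so that 1 match covers both strands. The promoters of 8 named muscle genes were searched and 4 held it; a match is a description of the letters, not a site. Chrna1 (minus strand, chr2:73580339-73580588) and Chrng (plus strand, chr1:87205561-87205810) each hold 2, Hes6 (minus strand, chr1:91414039-91414288) and Jph2 (minus strand, chr2:163397994-163398243) hold 1.
Chrna1: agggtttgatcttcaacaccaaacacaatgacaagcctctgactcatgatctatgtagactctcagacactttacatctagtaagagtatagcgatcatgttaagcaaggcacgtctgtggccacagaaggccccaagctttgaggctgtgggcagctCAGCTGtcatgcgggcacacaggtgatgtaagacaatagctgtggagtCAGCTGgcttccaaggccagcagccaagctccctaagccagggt
Chrng: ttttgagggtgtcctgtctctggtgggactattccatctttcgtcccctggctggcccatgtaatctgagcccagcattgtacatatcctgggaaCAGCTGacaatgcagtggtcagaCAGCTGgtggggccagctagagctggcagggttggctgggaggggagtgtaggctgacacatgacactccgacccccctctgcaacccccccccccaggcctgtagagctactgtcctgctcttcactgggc
Hes6: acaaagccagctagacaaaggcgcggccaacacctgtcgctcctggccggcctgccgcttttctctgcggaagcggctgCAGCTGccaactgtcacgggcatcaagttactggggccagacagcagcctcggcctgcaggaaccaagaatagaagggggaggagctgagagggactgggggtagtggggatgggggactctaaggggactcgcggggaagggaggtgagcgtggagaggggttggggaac
Jph2: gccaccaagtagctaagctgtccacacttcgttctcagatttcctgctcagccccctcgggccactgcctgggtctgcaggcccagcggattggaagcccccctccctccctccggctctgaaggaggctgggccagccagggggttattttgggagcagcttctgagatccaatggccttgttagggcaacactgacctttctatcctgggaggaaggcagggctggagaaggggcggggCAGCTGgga

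Over all tested genes, 9648 had a RefSeq promoter of 300 bases, 250 before and 50 after the start, and 14.6% of these held CAGCTG. Among genes at least 2-fold lower in both fits 24.7% held it (129 of 523), and among genes at least 2-fold higher 14.7% (75 of 510). Called with the offsets alone, 17.2% of lower and 12.9% of higher genes held it. Observed over expected CpG, low in promoters without a CpG island, had a median of 0.623 in the 2-fold lower genes, 0.715 in the 2-fold higher genes and 0.779 overall. TATAAA on either strand was held by 9.61% of the 2-fold higher genes, 7.07% of the 2-fold lower genes and 6.61% of all. For TGANTCA, the AP-1 site, the shares in the same order were 5.1, 6.88 and 4.7%, and for GGAATG, a TEAD site, 9.22, 14.7 and 11.7%. Both strands were searched for every motif, and matches of different motifs were counted separately and may share bases. These shares are a description with no test.

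**Figure D3:**
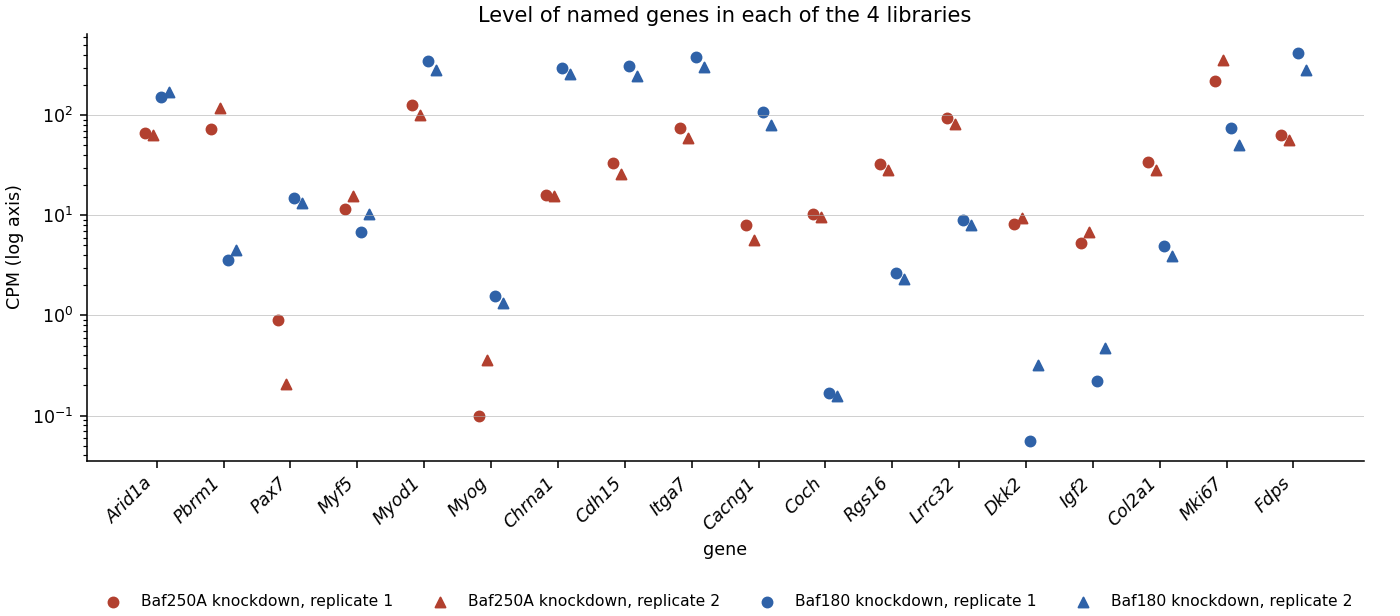
Level in CPM (log axis) of 18 named genes in each of the 4 libraries, Baf250A knockdown in red and Baf180 knockdown in blue, replicate 1 as circles and replicate 2 as triangles. The groups do not overlap for any gene shown, as for 82.3% of all tested genes, and for Myf5 the gap is the smallest.

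Neuronal genes split in both directions. Of 36 such genes 13 were tested, with 7 lower and 3 higher in both fits (6 or 7 and 2 to 4 with a library left out; median -1.76, then -1.07). The neuronal tubulin Tubb3 stood at 12 and 11.3 against 122 and 83.8 CPM (log2 fold change -3.14 ± 0.24, edgeR adjusted p = 1.9e-06; with offsets -2.27 ± 0.13, adjusted p = 3.4e-06), and the microtubule regulator Stmn2 at 18.9 and 19.6 against 75.7 and 92.4 CPM (-2.13 ± 0.21, then -2.66 ± 0.11). The synaptic vesicle protein Syn1 was also lower (-2.16 ± 0.26, then -1.35 ± 0.16). St8sia2, a polysialyltransferase that acts on NCAM, had 1 count against 146, a ratio of 157 (exact 95% interval of counting error, 27.7 to 6229). Neurofilament genes went the other way: Nefl stood at 11.6 and 11.4 against 1.55 and 2.27 CPM (log2 fold change 2.58 ± 0.32, edgeR adjusted p = 2.9e-05; with offsets 2.47 ± 0.20, adjusted p = 2.0e-05) and Nefm at 19.1 and 19.4 against 6.11 and 4.32 CPM (1.89 ± 0.28, then 2.35 ± 0.17).

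Axon guidance genes, which also act in cell contact outside the nervous system, were more often lower than higher. Of 51 tested, 20 were lower and 3 higher in both fits (17 to 20 and 2 to 4 with a library left out). The ephrin receptors Ephb2 (21.9 and 19.1 against 122 and 112 CPM; -2.51 ± 0.20, then -2.17 ± 0.11) and Ephb6 (17 and 12.8 against 109 and 81.2 CPM; -2.67 ± 0.24, then -1.83 ± 0.11) were among the lower. Plxnb1, a semaphorin receptor (-2.16 ± 0.22, then -1.67 ± 0.12), and Sema6c (-2.75 ± 0.28, then -1.73 ± 0.14) were lower too. Secreted semaphorin Sema3c was higher (2.25 ± 0.33, then 0.96 ± 0.20), as was the netrin receptor Unc5c (1.46 ± 0.29, then 0.67 ± 0.16).

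Most cholesterol genes were lower. All 27 genes of synthesis and uptake were tested; 18 were lower in both fits and none higher (16 or 17 with a library left out), and 24 were lower and none higher with the offsets alone. Without offsets 19 were lower and 3 higher, and 1 gene was called in opposite directions by the 2 fits. The median was -1.06, and -1.10 with the offsets, so it was nearly the same after the GC trend was removed. Fdps, an enzyme of the mevalonate pathway, stood at 64.1 and 56.4 against 419.8 and 283 CPM (log2 fold change -2.54 ± 0.22, edgeR adjusted p = 4.7e-06; with offsets -2.06 ± 0.13, adjusted p = 5.6e-06), and Mvd of the same pathway at 13.5 and 8.94 against 77.5 and 45.5 CPM (-2.45 ± 0.29, then -1.51 ± 0.16). Srebf2, the transcription factor that controls the pathway, stood at 219 and 191 against 746 and 606 CPM (-1.72 ± 0.19, then -0.99 ± 0.09). Fatty acid synthesis genes leaned the same way, with 8 of 18 lower and 1 higher in both fits (4 to 8 lower and 1 higher with a library left out, the 4 without Baf250A replicate 2). The desaturases Fads2 (-1.67 ± 0.20, then -1.07 ± 0.10) and Fads3 (-1.28 ± 0.19, then -0.87 ± 0.10) were among the lower, and the elongase Elovl6 was the 1 higher (1.58 ± 0.23, then 0.49 ± 0.11).

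**Figure D4:**
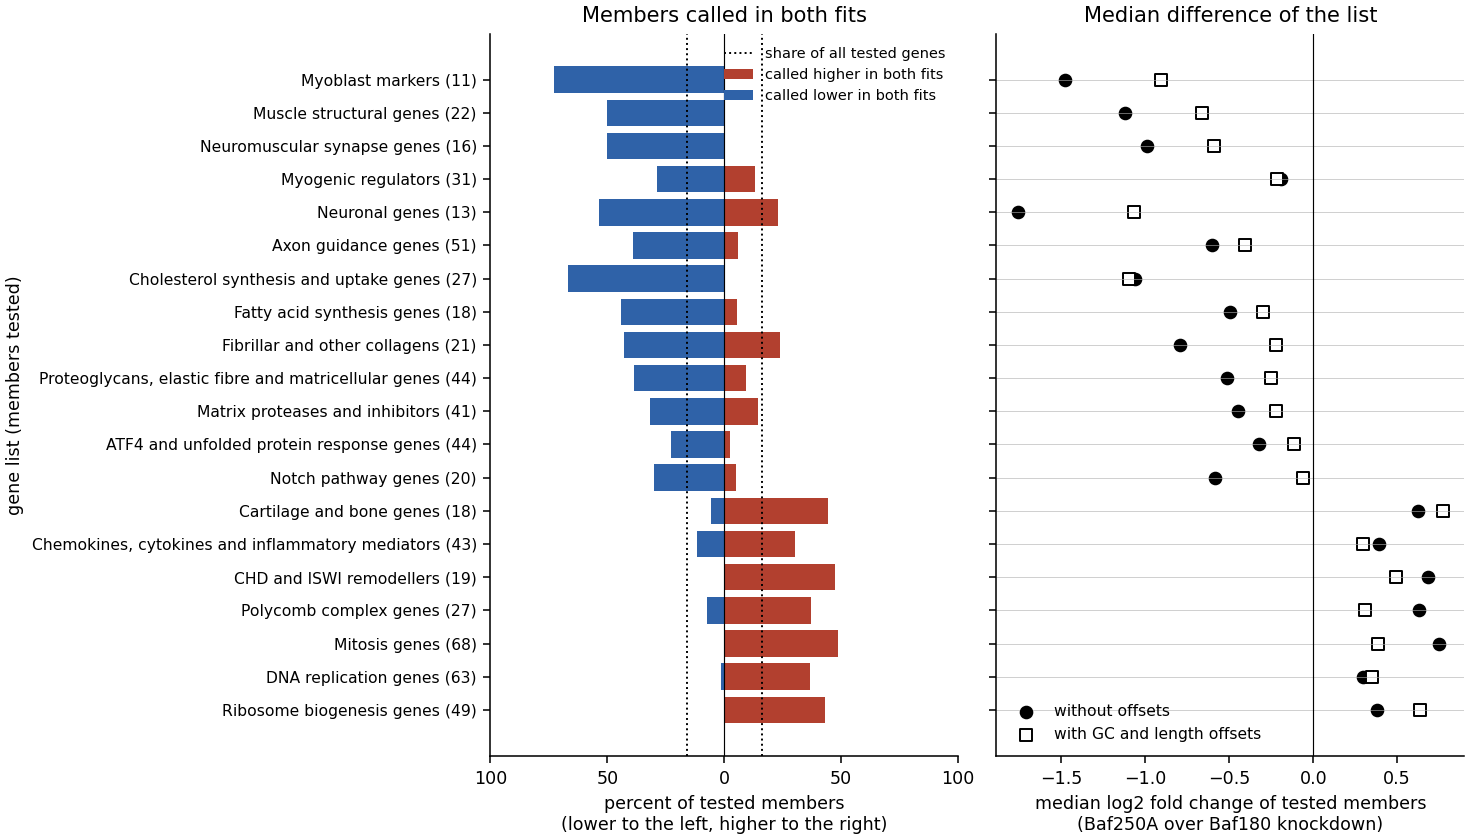
Left, percent of the tested members of 20 gene lists called lower (blue) or higher (red) in the Baf250A knockdown in both fits, with dotted lines at the shares of all tested genes, 16.0% and 16.3%. Right, median log2 fold change of the tested members without (circles) and with (squares) GC and length offsets; the cholesterol median is -1.06 and -1.10, and the mitosis median 0.75 and 0.39.

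Matrix genes differed in both directions. Of 21 tested collagens 9 were lower and 5 higher in both fits (6 to 9 and 5 or 6 with a library left out). Col8a2, a network-forming chain, stood at 1.78 and 1.8 against 40.9 and 35.7 CPM (log2 fold change -4.42 ± 0.28, edgeR adjusted p = 8.5e-07; with offsets -3.61 ± 0.16, adjusted p = 9.5e-07), while its partner chain Col8a1 was higher at 86.3 and 111 against 34.4 and 43.8 CPM (1.33 ± 0.21, then 0.74 ± 0.10). Col5a3, Col6a2 and Col5a1 were lower, at -2.19 ± 0.27, -1.62 ± 0.22 and -1.23 ± 0.19 without the offsets and -1.38 ± 0.14, -0.77 ± 0.10 and -0.70 ± 0.10 with them. Some collagens of cartilage were higher: Col2a1 stood at 34.2 and 28.1 against 5.0 and 3.9 CPM (log2 fold change 2.81 ± 0.27, edgeR adjusted p = 8.1e-06; with offsets 3.73 ± 0.14, adjusted p = 6.7e-07), Col27a1 at 5.4 and 5.96 against 1.39 and 0.896 CPM and Col11a1 at 5.89 and 7.14 against 2.66 and 2.11 CPM. Col11a2, which pairs with Col11a1, had overlapping groups (33 and 33 against 21 and 38 counts) and was not called in either fit. Col2a1 and Col27a1 have GC-rich transcripts (62.4% and 59.4%), and so lay against the trend.

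Proteoglycans and matricellular genes were more often lower, 17 of 44 tested against 4 higher in both fits (13 to 16 and 3 to 6 with a library left out). Cspg4, the NG2 proteoglycan, stood at 10 and 9.96 against 101 and 87 CPM (log2 fold change -3.24 ± 0.22, edgeR adjusted p = 8.5e-07; with offsets -2.63 ± 0.11, adjusted p = 7.5e-07). Prelp, Fbln7 and the latent TGF-beta binding protein Ltbp4 were lower, at -3.62 ± 0.36, -3.43 ± 0.35 and -1.94 ± 0.22, or -3.15 ± 0.25, -3.01 ± 0.24 and -1.02 ± 0.11 with the offsets. Coch (chr12:51593283-51606619), cochlin, which is best known from the inner ear, had the largest positive log2 fold change of the genes averaging at least 5 CPM. It stood at 10.4 and 9.65 against 0.167 and 0.158 CPM, the latter from 3 and 3 counts (log2 fold change 5.89 ± 0.44, edgeR adjusted p = 1.7e-06; with offsets 5.43 ± 0.35, adjusted p = 6.5e-06). Spp1, osteopontin, was higher at 2751 and 3727 against 546 and 677 CPM (2.40 ± 0.22, then 1.52 ± 0.11). Of 24 basement membrane genes 6 were lower (25.0%) and 3 higher (12.5%) in both fits, or 4 to 6 and 2 or 3 with a library left out. Laminin chains parted, with Lama2, the muscle chain, at 3.27 and 4.21 against 20.1 and 18.2 CPM (-2.35 ± 0.28, then -3.04 ± 0.18), Lama5 at 75.2 and 66.8 against 304 and 282 CPM (-2.05 ± 0.19, then -1.51 ± 0.11) and Lamc3 higher at 1.98 and 1.85 against 0.167 and 0.0527 CPM, the latter from 3 and 1 counts (4.07 ± 0.58, then 4.72 ± 0.48).

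Of 41 tested matrix proteases and inhibitors, 13 were lower and 6 higher in both fits (12 to 15 and 4 to 6 with a library left out). The aggrecanase Adamts4 stood at 6.04 and 5.55 against 68 and 65.8 CPM (log2 fold change -3.53 ± 0.23, edgeR adjusted p = 8.5e-07; with offsets -2.95 ± 0.12, adjusted p = 6.7e-07), and Mmp11 was lower, at -1.85 ± 0.19, then -1.10 ± 0.12. Plasminogen activator inhibitors differed in direction: Serpinb2 was higher at 8.71 and 11.8 against 0.278 and 0.527 CPM (4.64 ± 0.42, then 2.88 ± 0.30) and Serpine2 lower at 12 and 12.1 against 40.6 and 51.4 CPM (-1.94 ± 0.23, then -2.14 ± 0.13). Timp1, an inhibitor of matrix metalloproteases, was higher at 692 and 632 against 312 and 266 CPM (1.20 ± 0.18, then 1.58 ± 0.09).

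Genes of cartilage and bone were more often higher than lower. Of 36 genes 18 were tested, and 8 were higher and 1 lower in both fits (5 higher without Baf180 replicate 1; median 0.62, then 0.77). Beside Col2a1 and Spp1, osteoprotegerin, Tnfrsf11b, stood at 4.36 and 6.16 against 0.222 and 0.58 CPM (log2 fold change 3.68 ± 0.46, edgeR adjusted p = 3.4e-05; with offsets 2.57 ± 0.35, adjusted p = 0.00027). Its ligand RANKL, Tnfsf11, had 58 counts against 1, a ratio of 54.1 (exact 95% interval of counting error, 9.33 to 2172). Sox9, the chondrocyte regulator, was higher by 0.62 ± 0.19, then 0.48 ± 0.10, but 3 of its 4 calls without offsets were lost with a library left out (edgeR adjusted p of 0.0632 without Baf250A replicate 1, 0.182 without Baf250A replicate 2 and 0.171 without Baf180 replicate 1). Dmp1, a bone matrix protein, was the 1 lower (-2.92 ± 0.53, then -2.79 ± 0.46).

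Inflammatory mediators were also higher on balance, 13 of 43 tested against 5 lower in both fits (12 to 15 higher with a library left out, and 3 and 2 lower without Baf250A replicates 1 and 2; median 0.39, then 0.30). The chemokine Ccl2 stood at 223 and 307 against 37.1 and 44.8 CPM (log2 fold change 2.69 ± 0.22, edgeR adjusted p = 3.1e-06; with offsets 1.61 ± 0.10, adjusted p = 5.4e-06). Cxcl5 stood at 503 and 664 against 78.8 and 107 CPM, but its transcript is GC-poor (37.8%) and its log2 fold change of 2.65 ± 0.22 was 0.64 ± 0.11 with the offsets. Cyclooxygenase genes went opposite ways. The inducible Ptgs2 was higher at 143 and 200 against 27.3 and 35.3 CPM (2.45 ± 0.23, then 0.69 ± 0.10), and the constitutive Ptgs1 lower at 74.8 and 60.9 against 220.5 and 199.6 CPM (-1.63 ± 0.19, then -1.43 ± 0.12). Prostacyclin synthase, Ptgis, was lower with Ptgs1 (-2.01 ± 0.25, then -1.23 ± 0.13), and the prostaglandin F receptor Ptgfr higher (3.22 ± 0.35, then 1.58 ± 0.18).

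Many proliferation genes were higher in the Baf250A knockdown, by an amount that depended on the offsets. Of 68 mitosis genes, all tested, 33 were higher and none lower in both fits (27 to 32 higher with a library left out, and 1 lower without Baf180 replicate 2), and the median moved from 0.75 to 0.39 with the offsets. The condensin subunits Smc4 (98.8 and 171 against 16.3 and 15.2 CPM; log2 fold change 3.10 ± 0.26, edgeR adjusted p = 4.4e-06; with offsets 1.34 ± 0.16, adjusted p = 0.00013) and Smc2 (82.2 and 168 against 13.9 and 13.6 CPM; 3.18 ± 0.30, then 1.20 ± 0.17) were among the higher. Ncapg, a further condensin subunit, was higher by 2.89 ± 0.27, then 1.10 ± 0.13, and the kinesin Kif20b by 3.48 ± 0.35, then 1.48 ± 0.22. Mki67, the common marker of cycling cells, stood at 218 and 359 against 75 and 50.6 CPM (log2 fold change 2.20 ± 0.26, edgeR adjusted p = 2.3e-05; with offsets 1.28 ± 0.22, adjusted p = 0.00096). In every library pair across the groups Mki67 was higher in the Baf250A knockdown. Such separation, in 1 direction or the other, held for 82.3% of all tested genes.

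Of 63 DNA replication genes 23 were higher and 1 lower in both fits (14 higher without Baf250A replicate 2). The cyclins E went opposite ways: Ccne2 stood at 29 and 53.6 against 2.22 and 3.9 CPM (log2 fold change 3.75 ± 0.36, edgeR adjusted p = 7.5e-06; with offsets 1.27 ± 0.16, adjusted p = 0.00020) and Ccne1 at 43.1 and 41.7 against 94.5 and 86.4 CPM (-1.09 ± 0.19, then -0.67 ± 0.10). Orc2, of the origin recognition complex, was higher by 2.32 ± 0.24, then 1.20 ± 0.11. Ccnd1 was higher (0.64 ± 0.18, then 0.76 ± 0.10), but without offsets it lost the call unless all 4 libraries or all but Baf180 replicate 2 were used (edgeR adjusted p of 0.0737, 0.126 and 0.153). Ccnd2 was higher by 1.93 ± 0.23, then 1.35 ± 0.11. The cyclin-dependent kinase inhibitor Cdkn1a was lower at 223 and 193 against 430.3 and 380.3 CPM (-0.96 ± 0.18, then -0.37 ± 0.09), and with the offsets lost the call without either Baf250A replicate (edgeR adjusted p = 0.0691 and 0.127).

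Ribosome biogenesis genes were higher too, and their median was larger with the offsets. Of 49 genes, all tested, 21 were higher and none lower in both fits (16 to 20 higher with a library left out), and with the offsets alone 38 were higher and 1 lower (median 0.38, then 0.64). Nucleolin, Ncl, stood at 749.9 and 1105 against 150.3 and 165 CPM (log2 fold change 2.56 ± 0.22, edgeR adjusted p = 4.4e-06; with offsets 1.10 ± 0.11, adjusted p = 5.1e-05), and nucleophosmin, Npm1, at 857 and 1305 against 179.6 and 218 CPM (2.44 ± 0.23, then 1.23 ± 0.11). The box C/D particle protein Nop58 and the small-subunit processing factor Wdr43 were higher by 2.36 ± 0.23 and 2.30 ± 0.23, or 0.89 ± 0.10 and 1.38 ± 0.11 with the offsets. Of 82 tested cytosolic ribosomal proteins, which are assembled by that pathway, 5 were higher and none lower in both fits (2, 0, 1 and 3 higher without Baf250A replicates 1 and 2 and Baf180 replicates 1 and 2, with 4 lower in the last). With the offsets alone 32 of them were higher and 11 lower, and without offsets 11 and 2 (median 0.15 with and -0.06 without offsets).

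**Figure D5:**
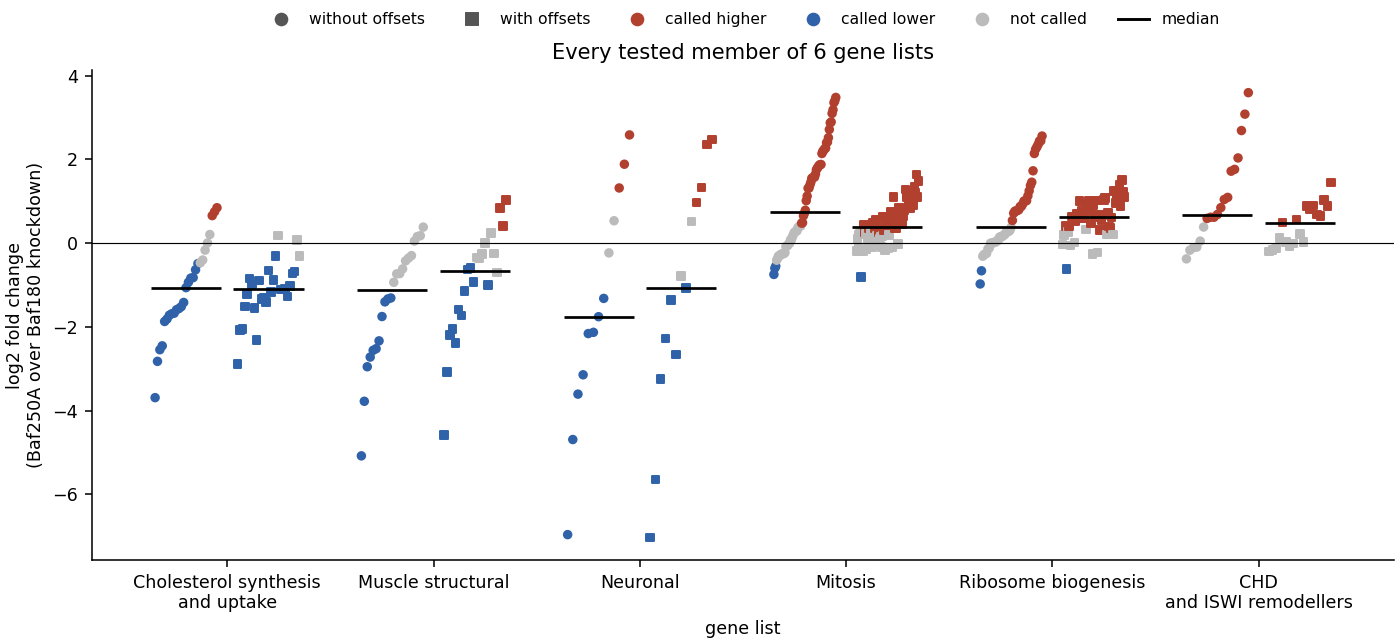
Log2 fold change (Baf250A over Baf180 knockdown) of every tested member of 6 gene lists, without offsets (circles) and with GC and length offsets (squares), coloured by call, with bars at the medians. The cholesterol median lies below 0 and the ribosome biogenesis, mitosis and remodeller medians above 0 in both fits.

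Chromatin regulators outside SWI/SNF were more often higher than lower. The list of CHD and ISWI remodellers also holds Hells and Atrx, ATPases of neither family. Of its 19 tested genes 9 were higher and none lower in both fits (8 or 9 with a library left out). The median of the list was 0.68, then 0.49. The ISWI ATPase Smarca5 stood at 124 and 186 against 21.6 and 26.4 CPM (log2 fold change 2.69 ± 0.24, edgeR adjusted p = 4.9e-06; with offsets 1.03 ± 0.10, adjusted p = 5.3e-05). Hells stood at 32.3 and 70.8 against 3.83 and 4.69 CPM, Atrx at 36.3 and 76.5 against 7.16 and 6.17 CPM and Chd1 at 62.8 and 98.3 against 19.5 and 19.8 CPM. Their log2 fold changes of 3.59 ± 0.35, 3.08 ± 0.32 and 2.04 ± 0.24 were 1.45 ± 0.18, 0.88 ± 0.19 and 0.65 ± 0.13 with the offsets. All 4 transcripts have less than 44% GC, and the larger part of each difference was gone with the offsets.

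Polycomb genes, whose complexes oppose SWI/SNF at many promoters, were higher for 10 of 27 and lower for 2 in both fits (6 higher without Baf250A replicate 2, and 1 lower unless Baf180 replicate 1 or none was left out). Suz12 and Eed, core subunits of PRC2, stood at 51.6 and 86.4 against 8.49 and 10.1 CPM (log2 fold change 2.89 ± 0.27, edgeR adjusted p = 6.7e-06; with offsets 1.43 ± 0.13, adjusted p = 3.2e-05) and 26.9 and 37.1 against 9.88 and 11.4 CPM (1.59 ± 0.25, then 1.28 ± 0.14). Bmi1 of PRC1 was higher by 2.62 ± 0.27, then 0.92 ± 0.11, and the PRC2 accessory subunit Mtf2 by 2.74 ± 0.32, then 0.81 ± 0.15. Ezh1, the PRC2 methyltransferase of resting cells, was lower at 11.8 and 11.3 against 30.9 and 27.5 CPM (-1.33 ± 0.23, then -1.20 ± 0.13).

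Signalling genes differed in both directions. In the TGF-beta family 12 of 49 tested genes were higher and 11 lower in both fits (7 higher without Baf250A replicate 2). Lrrc32, the GARP protein that holds latent TGF-beta on the cell surface, stood at 94.8 and 81.9 against 8.94 and 7.96 CPM (log2 fold change 3.39 ± 0.22, edgeR adjusted p = 8.5e-07; with offsets 4.08 ± 0.12, adjusted p = 1.7e-07). The ligand Tgfb1 itself was lower at 75.5 and 50.4 against 379 and 248 CPM (-2.31 ± 0.25, then -1.27 ± 0.12). Of the BMP antagonists, Grem1 was higher at 130.0 and 191 against 30.5 and 41.7 CPM (2.15 ± 0.24, then 1.39 ± 0.12) and Chrd, chordin, lower at 0.396 and 0.565 against 8.1 and 6.22 CPM (-3.88 ± 0.40, then -2.94 ± 0.30).

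In the Wnt list 9 of 42 were higher (21.4%) and 6 lower (14.3%). Without Baf250A replicate 1, Baf250A replicate 2 and Baf180 replicate 1, 5, 4 and 4 were higher. Dkk2, a secreted Wnt modulator, stood at 8.22 and 9.5 against 0.0555 and 0.316 CPM, the latter from 1 and 6 counts (log2 fold change 5.50 ± 0.50, edgeR adjusted p = 5.5e-06; with offsets 4.83 ± 0.38, adjusted p = 1.7e-05). Tcf7 was higher by 1.04 ± 0.23, then 1.64 ± 0.16, and its relative Tcf7l1 lower, at -1.59 ± 0.20, then -0.66 ± 0.10. Notch pathway genes were lower for 6 of 20 and higher for 1 (5 or 6 and 0 to 2 with a library left out), with Notch3 at 45.1 and 37.1 against 176 and 141 CPM (-1.95 ± 0.20, then -1.31 ± 0.10) and the Notch-modifying glycosyltransferase Lfng at 24.6 and 22.3 against 97.8 and 86 CPM (-1.97 ± 0.20, then -1.10 ± 0.11). The YAP partner Tead2 was lower (-1.81 ± 0.19, then -1.05 ± 0.09). Rgs16, a brake on G-protein signalling, was higher at 32.8 and 28.6 against 2.66 and 2.32 CPM (log2 fold change 3.62 ± 0.28, edgeR adjusted p = 2.1e-06; with offsets 4.10 ± 0.15, adjusted p = 6.7e-07).

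Growth factor genes included 11 higher and 12 lower of 46 in both fits (7 higher without Baf250A replicate 1). Igf2 (chr7:142650768-142666816) stood at 5.35 and 6.83 against 0.222 and 0.474 CPM (log2 fold change 4.09 ± 0.44, edgeR adjusted p = 1.4e-05; with offsets 4.63 ± 0.37, adjusted p = 1.9e-05). H19 (chr7:142575530-142578146), the noncoding RNA next to Igf2 that is expressed from the opposite parental allele, was lower at 914 and 852 against 2611 and 2200 CPM (-1.45 ± 0.19, then -0.76 ± 0.10). Pdgfb and Gas6 were lower, at -3.20 ± 0.30 and -3.12 ± 0.28, or -2.28 ± 0.26 and -2.40 ± 0.16 with the offsets. Igfbp2, which binds insulin-like growth factors, was lower at 32.2 and 26.9 against 245 and 181 CPM (-2.85 ± 0.22, then -1.94 ± 0.10). Over the imprinted genes as a list, 4 of 16 were higher and 5 lower in both fits (1 higher without Baf250A replicate 2, and 3 lower without Baf250A replicate 1).

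Genes of the ATF4 and unfolded protein response were more often lower than higher. Of 44 tested, 10 were lower and 1 higher in both fits (7 to 10 lower with a library left out; 2 higher without Baf180 replicate 1 and none under the other 3 omissions). Chac1 (-2.15 ± 0.26, then -1.33 ± 0.13) and Xbp1 (82.2 and 76.2 against 208 and 192 CPM; -1.34 ± 0.18, then -0.91 ± 0.09) were lower. Slc7a11, the cystine importer, stood at 69.2 and 59 against 225 and 143 CPM, and with a GC-poor transcript its log2 fold change went from -1.52 ± 0.23 to -3.38 ± 0.36. Gdf15, a stress-induced cytokine of the p53 list, stood at 8.66 and 5.5 against 75.2 and 55.8 CPM (-3.21 ± 0.27, then -2.24 ± 0.13). Of the immediate early genes Egr1 was lower (-1.66 ± 0.19, then -1.16 ± 0.13), while Spry4, a feedback inhibitor of receptor tyrosine kinases, was higher (2.19 ± 0.29, then 2.31 ± 0.19). That list had 7 higher (17.9%) and 4 lower (10.3%) of 39 in both fits. There were 3 higher without Baf250A replicate 2 or Baf180 replicate 1, and 2 lower without Baf250A replicate 1.

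Other adhesion, contractile and metabolic genes divided. Of 29 integrins, cadherins and catenins 8 were lower and 4 higher in both fits (7 to 9 and 4 or 5 with a library left out). Integrin beta 3, Itgb3, stood at 38.7 and 40.5 against 118 and 114 CPM (-1.55 ± 0.19, then -1.39 ± 0.10), whereas the collagen receptor subunit Itga11 was higher at 15.5 and 12.6 against 3.94 and 3.37 CPM (1.94 ± 0.28, then 2.50 ± 0.17). Desmin, Des, the muscle intermediate filament, was lower at 727 and 560.0 against 1977 and 1263 CPM (-1.33 ± 0.23, then -0.60 ± 0.14). Calponin and transgelin, actin-binding proteins of smooth muscle, went the other way, with Cnn1 at 186 and 176 against 88.9 and 74.3 CPM (1.15 ± 0.19, then 1.42 ± 0.11) and Tagln at 1365 and 1274 against 778 and 729.6 CPM (0.81 ± 0.18, then 1.21 ± 0.10). Those 3 belong to a smooth muscle list of 20 tested genes, 3 higher and 3 lower in both fits (3 higher and 2 or 3 lower with a library left out). In the dystrophin complex, the membrane scaffold of muscle, 5 of 19 were lower and 1 higher (3 lower and none higher without Baf250A replicate 2, and none higher without Baf180 replicate 1), among the lower the sarcoglycan Sgca at 0.743 and 0.77 against 5.77 and 2.63 CPM (-2.46 ± 0.45, then -1.67 ± 0.37).

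Glycolysis and hypoxia genes had 6 higher and 5 lower of 39 in both fits (3 higher without Baf250A replicate 2, 9 lower without Baf180 replicate 2). These shares, 15.4% and 12.8%, lay below the 16.3% and 16.0% of all tested genes. The oxygen-sensing factor Hif1a was higher at 176 and 288 against 35.5 and 44.6 CPM (2.53 ± 0.25, then 0.81 ± 0.10), while the glycolytic enzymes Pfkp (-1.59 ± 0.22, then -1.62 ± 0.17) and Hk1 (-1.29 ± 0.20, then -0.67 ± 0.11) were lower. Of 35 Nrf2 and metallothionein genes 8 were lower and 3 higher (6 to 11 and 2 to 4 with a library left out). The glutathione transferases split, with Gstm2 lower (-1.43 ± 0.24, then -1.18 ± 0.15) and Gsta1 higher at 10 and 11.6 against 2.61 and 3.0 CPM (1.94 ± 0.29, then 1.55 ± 0.18). Gsta1 and Gsta2 are close copies between which reads may be shared, and Gsta2 had 73 counts against 3, a ratio of 22.7 (exact 95% interval of counting error, 7.46 to 113). Antigen presentation and interferon genes had 6 lower and 2 higher of 33, 18.2% and 6.06% (none higher with any library left out). The peptide-loading protein tapasin, Tapbp, was lower at 80.1 and 59 against 277 and 234 CPM (-1.88 ± 0.21, then -1.13 ± 0.10).

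Other lists gave small counts or counts that turned on 1 library. Of 71 oxidative phosphorylation subunits 2 were higher and 4 lower in both fits, although Sdhd of complex II was higher at 114 and 122 against 38.5 and 43.7 CPM (1.52 ± 0.19, then 1.48 ± 0.10). Without Baf250A replicate 1 a single subunit was lower, and without Baf250A replicate 2 or Baf180 replicate 1 none. Of 27 housekeeping genes 2 were higher and 3 lower (1 higher without either Baf250A replicate, and 1 to 3 higher and 2 to 4 lower over all 4 omissions), with the transferrin receptor Tfrc (2.39 ± 0.23, then 0.54 ± 0.12) and the RNA polymerase II subunit Polr2a (-1.03 ± 0.19, then -0.89 ± 0.12) among them. Of 36 YAP and TEAD genes 10 were higher and 3 lower, but 6, 2 and 4 were higher without Baf250A replicate 1, Baf250A replicate 2 and Baf180 replicate 1. Of 27 G1 cyclins and inhibitors 7 were higher and 3 lower, with 4, 3 and 3 higher under the same omissions. Of 31 p53 targets 3 were higher and 4 lower (2 lower without either Baf250A replicate), and of 26 Sox and HOX genes 4 were higher and 2 lower (1, 1 and 0 higher under those 3 omissions).

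The largest differences outside these lists, among genes averaging at least 5 CPM, were of varied function. Tspan11, a tetraspanin, stood at 0.643 and 0.257 against 16.6 and 11.5 CPM (-4.94 ± 0.42, then -4.43 ± 0.32). The adropin gene Enho stood at 1.29 and 1.03 against 33.5 and 23.1 CPM, the corepressor Hr at 2.43 and 1.49 against 49 and 38.7 CPM and the mitochondrial carrier Ucp2 at 3.12 and 3.18 against 54.2 and 38.7 CPM. C1qtnf3, with 1.09 and 1.13 against 13.9 and 17.7 CPM, lay against the trend (-3.82 ± 0.32, then -4.58 ± 0.19). The Myc relative Mycl (-3.76 ± 0.33, then -3.16 ± 0.25) was lower as well. Pdgfrl, of the growth factor list, was also lower (-3.81 ± 0.25, then -3.59 ± 0.14). So was plakoglobin, Jup, of the list of integrins, cadherins and catenins (-3.46 ± 0.22, then -2.71 ± 0.11).

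Among the higher, U90926 stood at 90.1 and 99.1 against 4.77 and 2.11 CPM (4.78 ± 0.32, then 4.19 ± 0.25). For Pi15, Esco2, Zfp160, Sh3bgrl and Hmgn5 the trend made up much of the value. Their log2 fold changes of 4.06 ± 0.35, 3.75 ± 0.39, 3.66 ± 0.44, 3.63 ± 0.32 and 3.62 ± 0.43 were 1.36 ± 0.23, 1.62 ± 0.24, 1.46 ± 0.30, 1.27 ± 0.19 and 2.05 ± 0.32 with the offsets. Zfp160 belongs to a large family of similar zinc-finger genes, between which reads may be shared.

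Few genes at the ends of the trend were called against it in both fits, since the fit without offsets holds the trend itself. With the offsets alone 293 genes were lower in the bottom GC decile and 374 higher in the top decile. In the bottom GC decile 5 genes were lower in both fits; they are named here after their values were seen. These were Slc7a11, Edil3 (1.73 and 1.8 against 5.33 and 6.75 CPM; -1.77 ± 0.33, then -3.99 ± 0.26), Lix1 (-2.58 ± 0.45, then -3.87 ± 0.33), Rgs17 (-1.06 ± 0.42, then -3.61 ± 0.41) and the protocadherin Pcdhb19 (-1.45 ± 0.51, then -2.97 ± 0.45). Pcdhb19 sits in a cluster of near-identical genes, which makes its counts uncertain. In the top GC decile 28 genes were higher in both fits. Beside Col2a1 and Col27a1 they include Dact2, a Wnt and TGF-beta modulator (41.8 and 39.6 against 10.7 and 11 CPM; 1.91 ± 0.23, then 2.83 ± 0.15), and the feedback inhibitor Socs3 (90.8 and 86.1 against 53.6 and 52.3 CPM; 0.74 ± 0.19, then 1.61 ± 0.12), also picked after their values were seen.

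At the other extreme are genes called only without the offsets. The 4 with the most positive values were Tmed5 (2.99 ± 0.37, then 0.38 ± 0.19), Nbeal1 (2.81 ± 0.45, then 0.14 ± 0.29), Lrch2 (2.76 ± 0.36, then 0.42 ± 0.19) and Tasor (2.69 ± 0.39, then 0.53 ± 0.23). The 4 most negative were Ctsf (-1.43 ± 0.40, then -0.68 ± 0.30), Dact3 (-1.40 ± 0.27, then -0.25 ± 0.17), Fam219a (-1.40 ± 0.30, then -0.63 ± 0.25) and Slc25a29 (-1.38 ± 0.32, then -0.41 ± 0.18). With the offsets several of the 8 were called when a library was left out. This happened without Baf180 replicate 2 for Tmed5, Lrch2 and Slc25a29 (edgeR adjusted p = 0.00157, 0.0247 and 0.013) and for Ctsf (9.31e-05, and 0.00201 without Baf250A replicate 1), and for Fam219a without Baf250A replicate 2 or Baf180 replicate 1 (adjusted p = 0.0364 and 0.00119). Without offsets Ctsf lost the call without the latter 2 libraries (edgeR adjusted p = 0.0663 and 0.0589). The first 4 have transcripts of less than 40% GC and the last 4 more than 56%. Chromosome medians behaved alike: chromosome 13 (0.62) and the X chromosome (0.62) were the highest without the offsets and chromosome 7 (-0.37) the lowest, and with them the 3 medians were 0.09, 0.02 and 0.05.

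Most markers of other cell types were too low to test. Of 12 endothelial, 15 leukocyte, 14 epithelial and 12 glial markers, 1, 3, 3 and 3 passed the filter on low counts. In the same order 5, 8, 4 and 4 markers had 0 counts in all 4 libraries, among them Cldn5, Ptprc, Epcam and Sox10. Others had a few counts, such as the endothelial Pecam1 (5 and 6 against 5 and 8). Summed levels in the Baf250A and Baf180 libraries were 3.23 to 4.404 and 3.64 to 4.38 CPM for endothelial markers, 9.65 to 12.2 and 11.9 to 15.8 CPM for leukocyte markers, 24.4 to 32.2 and 36.6 to 52.3 CPM for epithelial markers, and 94.8 to 99 and 150.5 to 157.6 CPM for glial markers. The glial sum came mostly from Pmp22, at 79.2 and 78.9 against 127 and 130.1 CPM, and Egr2, at 13.4 and 16.9 against 20.4 and 24.8 CPM. Pmp22 was lower in both fits (-0.70 ± 0.18, then -0.59 ± 0.09), but without offsets not when Baf250A replicate 1 or 2 was left out (edgeR adjusted p = 0.0708 and 0.0938). The keratin Krt7 was higher in both fits and in all 8 fits with a library left out, at 3.46 and 2.46 against 0.611 and 0.158 CPM (2.94 ± 0.51, then 3.33 ± 0.44). Krt14 (-0.80 ± 0.25, then -0.02 ± 0.12) and Krt19 (-0.79 ± 0.28, then 0.02 ± 0.15) were called lower without offsets only, and are named after their values were seen. The macrophage receptor gene Csf1r was lower in both fits, at 4 and 3 against 17 and 12 counts. It lost the call without offsets when Baf250A replicate 2 or Baf180 replicate 1 was left out (edgeR adjusted p = 0.0697 and 0.066), and with them when Baf250A replicate 1, Baf250A replicate 2 or Baf180 replicate 1 was (adjusted p = 0.0974, 0.139 and 0.161). Fibroblast markers, which myoblasts also express, summed to 2298 and 2471 CPM against 3902 and 3946 CPM, with 4 of 8 tested lower and 1 higher in both fits (1, 1 and 2 lower without Baf250A replicates 1 and 2 and Baf180 replicate 2), and their part in the matrix differences was not tested.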

How the data were processed

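Total RNA was harvested in TRIzol and sequenced on a BGISEQ-500, per the labels' protocols, which do not state strandedness. The authors deposited 1 table of estimated counts per gene for the 8 libraries, and the submitters' processing notes name HISAT2, Bowtie2, RSEM, StringTie, Cufflinks, DESeq2 and the mm10 build, with no role or order. Reads of a gene and an antisense partner therefore cannot be told apart. The members, the gene lists and the tests were chosen with earlier results of these data known.

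The 4 library columns were rounded to whole counts, filtered with filterByExpr (12098 of 24573 genes) and scaled by TMM, and edgeR 4.0.16 (R 4.3.3) tested Baf250A against Baf180 by quasi-likelihood with Benjamini-Hochberg adjustment over all genes tested. Standard errors are the absolute log2 fold change over the square root of the F statistic. That statistic borrows information on spread across genes. A second fit added per-library offsets from a loess curve (span 0.3) of log2 CPM deviations on transcript GC content and, for what was left, on gene length (log2); 11976 of the tested genes had a GC value and the others an offset of 0. GC content was the mean over the GENCODE M21 transcripts linked to a gene's RefSeq transcript accessions. Gene names and coordinates came from RefSeq, matched to 24479 genes by gene ID and 9 by RefSeq accession, with 85 not matched. Promoters are RefSeq's on GRCm38.p6. Scripts were tested on simulated data.

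Genes named were the 2 targets, the 12 largest log2 fold changes in each direction among genes called in both fits with at least 5 CPM on average and no overlap, up to 4 called members in each direction per list, a fixed set of myogenic, cell cycle and SWI/SNF genes, and up to 4 genes in each direction called only without offsets. Alternatives comprised other scaling, filters, DESeq2 1.42.0, limma 3.58.1 (voom), all 8 libraries, a replicate block and leaving out each library. Some genes that the rule names are not reported here.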

Additional observations from a re-analysis of the deposited data

How the results depend on the processing

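The 6905 genes called without offsets became 5875 to 7766 under other scaling, filters, tools and library sets, and 3981 (2368 higher, 1613 lower) when tested against a fold change of 1.5. With 1 library left out the count ran from 3999 (without Baf250A replicate 2) to 6884. With offsets 6666 were called, and 4799 to 7103 with a library left out. Both fits shared 3905, and 2466 to 3975 with a library left out, the fewest without Baf250A replicate 2. The trend with GC content (rho -0.719) was -0.573 with no filter beyond 1 count, 0.00129 with offsets, -0.0208 with the GC offset alone, and -0.743 to -0.655 with a library left out. Direction turned for these genes with both offsets, then with the GC offset alone: Myf5 (-0.692, -0.762), Dpf1 (0.153, 0.101), Bicra (0.173, 0.243), Smarcd1 (0.69, 0.637), Bcl7c (0.634, 0.599), Smarcb1 (0.0252, with both) and Smarca4 (0.277, GC alone); the cause was not tested. No call of a named gene turned with a library left out. A replicate block gave 9384 calls without and 7697 with offsets, and 5099 in both; the differences of replicate 1 from 2 correlated by 0.491 between groups (0.162 with offsets), which with 2 numbers does not show pairing. Fewer than 4 counts in a group leave folds of Tnnt1, Chrng, St8sia2, Tnfsf11 and Gsta2 with wide intervals.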
